A study of Mus musculus with 8 samples.

Results

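Interferon-stimulated genes were read in mouse embryonic fibroblasts that lack several chromatin silencing enzymes. The group was a fixed list of 48 gene symbols, and all 48 were found among the 24062 genes of the count table and passed the filter on low counts, as did 14393 genes in all. The cells were immortalized fibroblasts labelled 6KO. They lack Ring1b, a catalytic subunit of Polycomb repressive complex 1, and 5 enzymes that methylate histone H3 at lysine 9: Ehmt1, Ehmt2, Setdb1, Suv39h1 and Suv39h2. All groups share these deletions, so no group has intact H3K9 methylation, and all carry a lentiviral shRNA selected with blasticidin. Control cells received a control shRNA. Knockdown cells received one against Ring1a (gene Ring1, the paralog of Ring1b). The DS3201 group had the control shRNA and DS3201 at 1 uM for 7 days, and in the combined group the same treatment was given to cells with the Ring1a shRNA. DS3201 inhibits EZH1 and EZH2, which place H3K27 methylation. The series asks what H3K27 methylation and Polycomb complex 1 contribute to silencing once H3K9 methylation is gone. Poly(A) RNA was sequenced in 2 libraries per group, 8 in all, with 12738585 to 23688253 counts each.

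Column names place 1 library of each group in a set named 20 and 1 in a set named 28, and each set is given apart because levels differ between them. The labels give 2 batches without tying them to the sets. Separate cultures are not stated, so each p-value is measured against the scatter of these 8 libraries alone, and that scatter may be technical. A principal component analysis used all genes and repeat subfamilies that passed the filter. DS3201 separated the libraries on the first component (54.4% of variance) and the set on the next (29.3%). The DS3201 library of set 28 stood apart on the component after that (7.57%), at 52.8 where the other 7 libraries lay between -30.4 and 26.7. Ring1 was lower in each library with its shRNA than in the partner library of the same set, at 4.51 and 3.52 CPM against 20.2 and 20.4 CPM in set 20, and 1.41 and 2.04 CPM against 9.73 and 7.51 CPM in set 28.

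Interferons are secreted proteins that cells release when sensors detect foreign or misplaced nucleic acid. Type I interferon binds the receptor IFNAR, the kinases JAK1 and TYK2 phosphorylate STAT proteins, among them STAT2, and these join IRF9 in the complex ISGF3. That complex binds the interferon-stimulated response element in promoters, while the gamma-activated site is bound after interferon gamma. The induced genes encode proteins that block viruses, tag proteins, sense RNA or feed back on the pathway, and fibroblasts can both make interferon and respond to it. Loss of repression of endogenous retroviruses, which H3K9 methyltransferases help to silence, is known as one trigger of this response in other cells.

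Levels are given as CPM, counts scaled to library size after TMM normalization, and comparisons between genes are not made because CPM does not account for gene length. The level of each gene in each library is shown in the heat map by role. Over the 48 genes, the summed level in set 20 was 5811 CPM in the control, 5645 CPM with the Ring1a shRNA, 5173 CPM with DS3201 and 3222 CPM in the combined group. In set 28 it was 2863, 3512, 1330 and 1303 CPM in the same order. The combined library was thus the lowest of set 20, while in set 28 both libraries with DS3201 were low. The median gene showed the same order of the 2 sets, with 83.4, 82.8, 74.7 and 45.8 CPM in set 20 and 39.3, 58.5, 14.9 and 13.4 CPM in set 28. For 27 genes the lowest of the 8 libraries was the combined library of set 28, and for 18 it was the DS3201 library of set 28. The highest library was the set 20 control for 19 genes, the set 20 Ring1a shRNA library for 13, the set 20 DS3201 library for 11 and the set 28 Ring1a shRNA library for 5. In RNA from a whole culture, fewer expressing cells and less RNA per cell cannot be told apart.

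**Figure D1:**
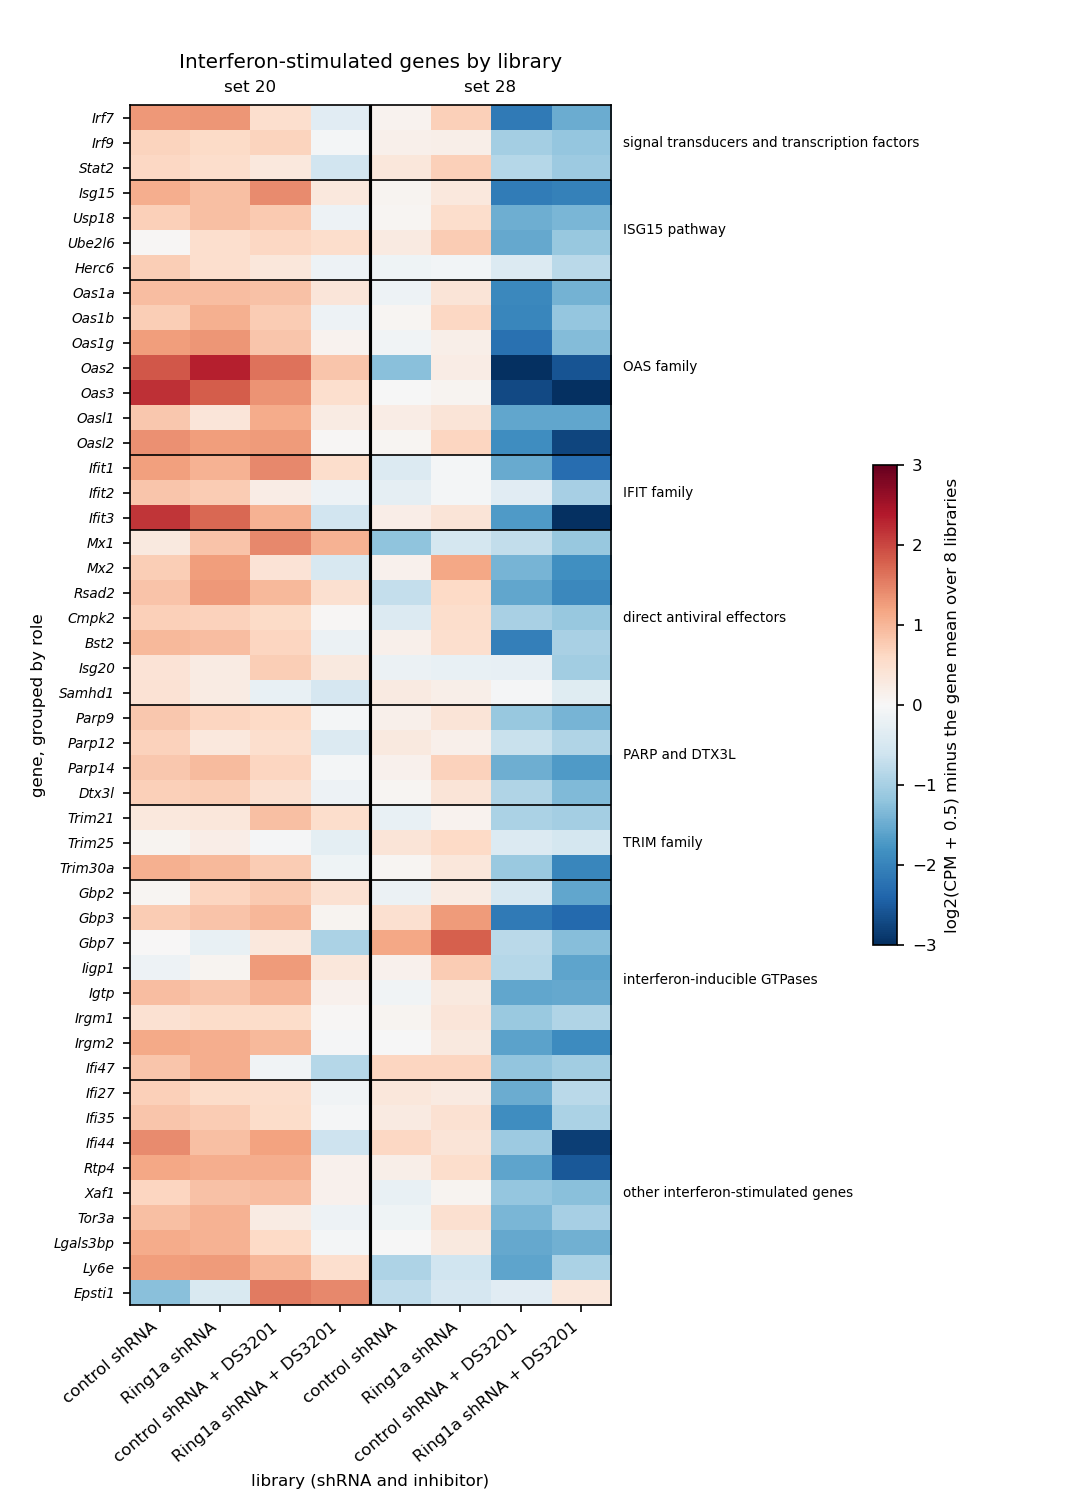
Level of the 48 interferon-stimulated genes (rows, grouped by role) in the 8 libraries (columns, set 20 left and set 28 right), as log2(CPM + 0.5) minus the mean of that gene over the 8 libraries, red above and blue below the mean, with the colour scale ending at 3 in either direction. The 2 right-hand columns, set 28 with DS3201, are below all other 6 libraries for 44 of 48 genes (11.3% of all genes).

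Promoters of these genes hold the known element more often than promoters at large. RefSeq promoters (build GRCm38.p6, the release of mm10, 250 bases before to 50 after a start) were found for 36 of the 48 genes. The core of the interferon-stimulated response element, GAAANNGAAA on either strand, was present in 17 of these 36 genes and in 18 of their 42 promoters (42.9%), against 3.44% of all 32851 promoters. The gamma-activated site TTCNNNGAA, which reads the same on both strands, was present in 9 of the 36 genes and in 21.4% of their promoters against 8.3% of all promoters. In Bst2, a gene with both motifs, the 2 matches overlap. Among 16 genes with a core upstream of the start, its nearest base lay a median of 52.5 bases away, and in 12 genes within 100 bases. The sequences below show the core in genes whose DS3201 results are given with a fold change and test. Of 20 genes picked for that by the rule on named genes, 16 had a promoter and 7 held a core upstream of the start, and these 7 are printed with up to 30 bases on each side. Bst2, Rsad2, Oas1a, Oas1g, Gbp2, Gbp7, Igtp, Irgm1 and Irgm2 also hold a core upstream and are not printed. Each reads 5′ to 3′ on the strand of the gene, and capitals mark the core on either strand, so that TTTC repeats are the core of the opposite strand. Their positions are chr19:34583343-34583446 (plus strand), chr3:142559969-142560043 (plus), chr7:104465194-104465259 (minus), chr5:120777695-120777764 (minus), chr10:128270248-128270315 (plus), chr19:34640755-34640843 (plus) and chr4:156200845-156200926 (minus).
Ifit3: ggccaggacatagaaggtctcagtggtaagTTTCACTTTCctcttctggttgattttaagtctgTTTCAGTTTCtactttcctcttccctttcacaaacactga
Gbp3: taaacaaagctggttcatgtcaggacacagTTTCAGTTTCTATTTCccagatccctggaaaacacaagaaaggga
Trim30a: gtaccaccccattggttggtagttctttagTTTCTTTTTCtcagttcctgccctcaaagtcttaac
Oas3: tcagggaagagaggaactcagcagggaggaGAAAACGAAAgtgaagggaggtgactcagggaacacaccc
Stat2: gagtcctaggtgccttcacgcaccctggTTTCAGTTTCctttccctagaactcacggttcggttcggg
Ifit1: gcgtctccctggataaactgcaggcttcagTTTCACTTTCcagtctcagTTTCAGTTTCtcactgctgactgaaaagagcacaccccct
Isg15: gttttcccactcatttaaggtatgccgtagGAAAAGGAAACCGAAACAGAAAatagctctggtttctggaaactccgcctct
Ifit3, Gbp3 and Ifit1 have 2 cores, and those of Gbp3 overlap. Isg15 has 3 overlapping cores and the other 3 genes have 1. A match describes these letters and is no measure of binding.

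Set 28 had lower levels than set 20 across most of the list. In the edgeR fit with terms for group and set, 30 of 48 genes were lower in set 28 and 0 higher, where 14.5% of all genes tested were lower and 11.8% higher, and 40 of the 48 had an unadjusted p under 0.05 (83.3%, against 40.9% of all genes). The median log2 difference was -1.15 over the list and -0.01 over all genes. Within the groups the median difference was -0.77 in the control, -0.45 with the Ring1a shRNA, -2.17 with DS3201 and -1.43 in the combined group, and 39 of the 48 genes were lower in set 28 in all 4 groups (26.0% of all genes). Without the DS3201 library of set 28 the edgeR fit called 25 genes lower (17.6% of all genes), and without the combined library of set 20 or of set 28 it called 12 (7.87% and 7.5% of all genes).

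Oas2, which makes the oligoadenylates that activate RNase L, was lower in every set 28 library. Its level was 69.7, 95.4, 58.6 and 33.5 CPM in set 20 (control, Ring1a shRNA, DS3201 and combined) and 7.58, 21.9, 1.85 and 2.68 CPM in set 28. All 4 libraries of set 20 were above all 4 of set 28, and the log2 difference was -3.33 ± 0.41 (SE, edgeR adjusted p = 0.00319). Its neighbour Oas3, a longer enzyme of the same kind, stood at 84.7, 65.3, 46.8 and 26.0 CPM in set 20 and 18.2, 19.2, 2.38 and 1.53 CPM in set 28. The sets did not overlap, with a log2 difference of -2.90 ± 0.44 (edgeR adjusted p = 0.00622). Ly6e, a membrane protein that limits entry of some viruses, was at 1392, 1401, 1169 and 832 CPM in set 20 and 308, 385, 193 and 303 CPM in set 28. Its sets did not overlap either, and the log2 difference was -2.02 ± 0.20 (edgeR adjusted p = 0.00153). Ifit1, a sensor of viral RNA caps, was at 317, 278, 367 and 192 CPM in set 20 and 101, 128, 46.5 and 27.0 CPM in set 28 (log2 difference -2.14 ± 0.33, edgeR adjusted p = 0.00637). For Mx1, a dynamin-like antiviral GTPase, the values were 3.61, 5.52, 8.61 and 6.40 CPM in set 20 and 0.94, 1.82, 1.5 and 1.02 CPM in set 28 (-2.16 ± 0.27, edgeR adjusted p = 0.00338). Both genes were higher in each set 20 library than in any set 28 library. The 9 genes that were not lower in set 28 in every group were Stat2, Oasl1, Trim25, Gbp3, Gbp7, Iigp1, Ube2l6, Samhd1 and Epsti1.

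**Figure D2:**
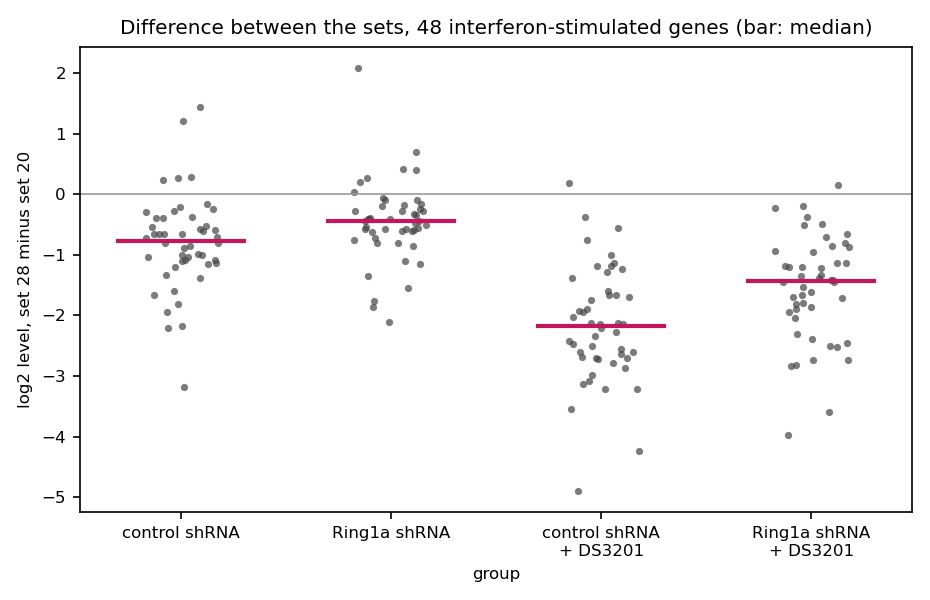
Log2 level in set 28 minus set 20 (y axis) for the 48 genes in each group (x axis), 1 point per gene with horizontal jitter, and the median as a bar. The medians are -0.77, -0.45, -2.17 and -1.43 from left to right, so the distance between the sets is wider in the groups with DS3201.

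The combined group was compared with the control to ask what happens when both Polycomb arms are reduced. In set 20, 42 of the 48 genes were lower (49.7% of all genes) and in set 28, 46 were (49.3%). Lower in both sets were 42, where 36.5% of all genes were, and 2 were higher in both (37.5%). The median log2 fold change was -1.04 (-0.88 within set 20 and -1.42 within set 28, about 0 over all genes). More than 2-fold lower were 18 genes in set 20 (3.25% of all genes) and 36 genes in set 28 (3.2%), and 1 gene in each set, Epsti1, passed the same limit upward (16.9% of all genes in set 20 and 15.0% in set 28). Its controls held 0 and 3 counts, so no fold is given for it. In 28 genes both combined libraries were below both controls (21.2% of all genes). The edgeR fit without a term for the set called 0 of the 48 genes lower or higher (0.0347% of all genes lower and 1.51% higher), with 8 at an unadjusted p under 0.05 (16.7%, close to 13.7% of all genes). With the set as a replicate block it called 12 lower and 0 higher (2.19% of all genes lower and 9.57% higher). In that fit 30 had an unadjusted p under 0.05 (62.5%, against 25.9% of all genes). DESeq2 without a block called 3 lower, Samhd1, Ifi47 and Stat2 (0.875% of all genes lower and 6.26% higher). The 12 became 0 without either combined library, 2 without the set 20 control and 1 without the set 28 control (0.0809% to 0.421% of all genes lower in those fits), while the median stayed between -1.39 and -0.92 in those 4 fits.

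Among signal transducers and transcription factors, Stat2 fell in the blocked fit. Stat2, the ISGF3 subunit specific to type I and III interferon (chr10, 128270559 to 128292849), was at 60.2 and 49.9 CPM in the controls of sets 20 and 28, 56.7 and 65.0 CPM with the Ring1a shRNA, 48.5 and 21.4 CPM with DS3201 and 25.9 and 18.1 CPM in the combined group. Both combined libraries were below all 4 libraries without DS3201, and the log2 fold change against control was -1.34 ± 0.31 with the block (edgeR adjusted p = 0.0353, and 0.195 without it). Irf7, the factor that amplifies interferon production (chr7, 141262706 to 141266481), had 68.4 and 29.6 CPM in the controls and 21.5 and 9.39 CPM in the combined group, 3.18-fold and 3.15-fold lower. It did not pass (edgeR adjusted p = 0.0569 with the block and 0.542 without it). Irf9, the DNA-binding subunit of ISGF3, was 1.66-fold and 2.51-fold lower in the sets and did not pass either.

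All 3 members of the IFIT family, proteins that bind viral RNA, were lower in both sets (36.5% of all genes). Ifit2 and Ifit3 fell in the blocked fit (2.19% of all genes lower). Ifit3 (chr19, 34583531 to 34588731) was at 148, 110, 68.3 and 22.0 CPM in set 20 and 38.2, 43.1, 9.80 and 3.19 CPM in set 28, in the order control, Ring1a shRNA, DS3201 and combined. Its level was lowest in the combined library within each set, 6.70-fold below control in set 20 and 12-fold in set 28. The log2 fold change was -3.08 ± 0.38 with the block (edgeR adjusted p = 0.00455, and 0.418 without it). Ifit2 was at 173, 167, 113 and 88.0 CPM in set 20 and 81.3, 93, 77.1 and 48.8 CPM in set 28. The combined library was again the lowest of each set, with a log2 fold change of -0.86 ± 0.17 (edgeR adjusted p = 0.0222 with the block and 0.564 without it). Reads of Ifit3 may be shared with a close copy next to it, and how such reads were counted is not given.

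In the ISG15 pathway 1 of 4 genes fell in the blocked fit (2.19% of all genes lower). Herc6, the ligase that attaches the ubiquitin-like protein ISG15 in mice, was at 97.7 and 53.9 CPM in the controls and 52.2 and 33.0 CPM in the combined group of sets 20 and 28. Its log2 fold change was -0.81 ± 0.15 (edgeR adjusted p = 0.0169 with the block and 0.514 without it). Isg15 itself was at 124, 108, 154 and 72.4 CPM in set 20 and 61.6, 72.2, 13 and 13.7 CPM in set 28, so that DS3201 alone went with a higher level in set 20 and a lower one in set 28. Usp18, which removes ISG15 and dampens the receptor, was 1.86-fold and 2.76-fold lower in the combined group, and Ube2l6, the conjugating enzyme, was higher in set 20 and 2.71-fold lower in set 28.

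In the OAS family 7 of 7 genes were lower in the combined group of both sets (36.5% of all genes). With the block 1 of 7 passed (2.19% of all genes lower). Oas3 fell 3.26-fold in set 20 and 11.9-fold in set 28 (log2 fold change -2.42 ± 0.61, edgeR adjusted p = 0.0481 with the block and 0.788 without it). Oasl2 was at 250 and 99.1 CPM in the controls and 98.1 and 13.7 CPM in the combined group, and Oas1a was at 82.1 and 38.6 against 55.5 and 15.7 CPM. Oas1a, Oas1b and Oas1g are close copies on chromosome 5, so their separate values are uncertain.

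Of 7 direct antiviral effectors 1 passed with the block (2.19% of all genes lower). Samhd1, which degrades the nucleotides that viruses need to copy DNA (chr2, 157097533 to 157135265), was at 251 and 224 CPM in the controls, 218 and 209 CPM with the Ring1a shRNA, 158 and 179 CPM with DS3201 and 130 and 144 CPM in the combined group. Its level differed little between the sets, and all 4 libraries with DS3201 were below all 4 without it. The log2 fold change in the combined group was -0.79 ± 0.16 (edgeR adjusted p = 0.0216 with the block and 0.0971 without it). Bst2, which tethers budding virus, was at 163 and 92.7 CPM in the controls and 74.1 and 42.1 CPM in the combined group. Rsad2 (viperin) was at 95.1 and 31.5 against 72.8 and 13.2 CPM. Cmpk2, its neighbour in the genome, was 1.61-fold and 1.68-fold lower. These 3 did not pass.

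Parp12, a mono-ADP-ribosyltransferase, and Dtx3l, the ubiquitin ligase partner of PARP9, fell in the blocked fit. Parp12 was at 114 and 86.0 CPM in the controls and 53.2 and 37.8 CPM in the combined group (log2 fold change -1.14 ± 0.24, edgeR adjusted p = 0.0287 with the block and 0.286 without it). Dtx3l was at 89.3 and 56.8 against 49.0 and 21.3 CPM (-1.13 ± 0.26, edgeR adjusted p = 0.0381 with the block and 0.543 without it). Parp9 and Parp14, which lie beside Dtx3l on chromosome 16, were lower by 1.82-fold and 1.85-fold in set 20 and by 2.95-fold and 3.61-fold in set 28 without passing.

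Trim30a was the TRIM gene that fell, and Ifi47 the interferon-inducible GTPase. Trim30a, a regulator of innate signalling, was at 159, 149, 130 and 69.4 CPM in set 20 and 79.3, 96.7, 35.0 and 19.1 CPM in set 28 (log2 fold change of the combined group -1.60 ± 0.33, edgeR adjusted p = 0.026 with the block and 0.569 without it). Ifi47, a GTPase of the family that attacks vacuoles of intracellular pathogens (chr11, 49076587 to 49096974), was at 25.8, 30.6, 13.1 and 7.60 CPM in set 20 and 22.3, 22.3, 5.92 and 6.58 CPM in set 28. All 4 libraries with DS3201 were below all 4 without it, and the combined group fell by 1.76 on the log2 scale (SE 0.27, edgeR adjusted p = 0.0103 with the block and 0.0993 without it). Trim25, which ubiquitinates the RNA sensor RIG-I, was at 163 and 200 CPM in the controls and 124 and 106 CPM in the combined group and did not pass.

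Of the remaining 9 genes, Ifi44 and Lgals3bp fell in the blocked fit (2.19% of all genes lower). Ifi44, an interferon-induced antiviral protein (chr3, 151730922 to 151749960), was at 81.4, 56.4, 70.5 and 19.4 CPM in set 20 and 46.4, 39.7, 13.9 and 3.83 CPM in set 28. It was 4.20-fold and 12.1-fold lower in the combined group than in control, with a log2 fold change of -2.75 ± 0.50 (edgeR adjusted p = 0.0171 with the block and 0.334 without it). Lgals3bp, a secreted glycoprotein, was at 314 and 145 CPM in the controls and 140 and 53.6 CPM in the combined group (-1.31 ± 0.31, edgeR adjusted p = 0.0383 with the block and 0.651 without it). Ly6e was 1.67-fold lower in set 20 and 1.02-fold lower in set 28, and Ifi27, a small membrane protein, was at 187 and 142 against 105 and 64.2 CPM.

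**Figure D3:**
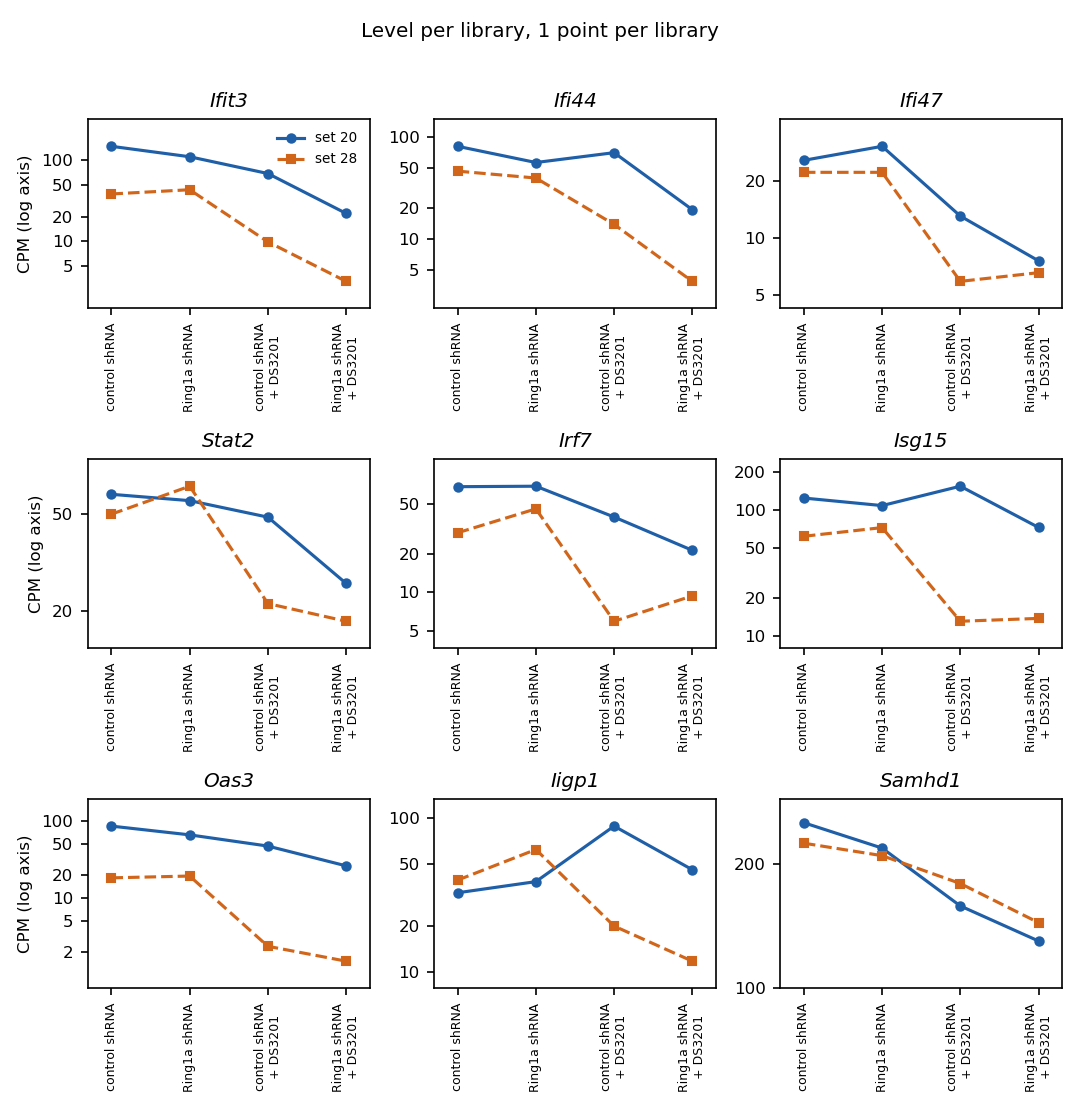
Level of 9 genes in CPM (y axis, log scale, a separate range for each gene) in the 4 groups (x axis), 1 point per library, circles for set 20 and squares for set 28, with lines only to guide the eye. Samhd1 and Ifi47 are lower with DS3201 in both sets, while Isg15 and Iigp1 with DS3201 alone are above control in set 20 and below it in set 28.

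The 6 exceptions were Mx1, Trim21, Gbp2, Iigp1, Ube2l6 and Epsti1, which were not lower in the combined group of both sets. Epsti1, named for its part in the contact of epithelial and stromal cells, was at 0, 0.366, 3.00 and 2.76 CPM in set 20 and 0.201, 0.337, 0.442 and 1.02 CPM in set 28. Those without DS3201 hold few counts, where 3 counts correspond to 0.122 to 0.265 CPM, and the rise did not pass (edgeR adjusted p = 0.255 without the block and 0.0663 with it). Mx1 was higher in the combined group of both sets, by 0.81 and 0.11 on the log2 scale, and did not pass (edgeR adjusted p = 0.937 without the block and 0.433 with it). Trim21, an antibody receptor in the cytosol, Gbp2, Iigp1 and Ube2l6 were higher than control in set 20 and lower in set 28.

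DS3201 was also compared within each shRNA. With the Ring1a shRNA, 42 of 48 genes were lower in both sets (35.1% of all genes), with medians of -0.80 in set 20 and -1.82 in set 28, and in 35 genes the groups did not overlap (18.6%). edgeR without the block called 0 genes (0% of all genes lower and 0.639% higher), with 6 at an unadjusted p under 0.05 (12.5%, against 10.2% of all genes). With the block it called 12 lower and 0 higher (0.875% lower and 6.34% higher). In that fit 39 had an unadjusted p under 0.05 (81.2%, against 19.8% of all genes). DESeq2 called Samhd1, Ifi47 and Stat2 lower (0.264% of all genes lower and 4.25% higher). The 12 were Ifit2, Ifit3, Irf7, Stat2, Mx2, Ifi44, Ifi47, Dtx3l, Trim30a, Herc6, Tor3a and Lgals3bp. They became 0 without either combined library, 16 without the set 20 Ring1a shRNA library and 2 without the set 28 one (0.0135% to 0.254% of all genes lower in those fits). This comparison shares the combined libraries with the one above. Mx2, a GTPase related to Mx1, was at 19.1 and 17.8 CPM with the Ring1a shRNA and 5.40 and 1.79 CPM in the combined group of sets 20 and 28. It fell by 2.57 on the log2 scale (SE 0.47, edgeR adjusted p = 0.0229 with the block and 0.300 without it). Tor3a, an ATPase of the endoplasmic reticulum, was at 44.0 and 29.5 against 19.0 and 10.3 CPM (-1.37 ± 0.27, edgeR adjusted p = 0.0292 with the block and 0.644 without it). Irf7 was at 69.0 and 45.7 against 21.5 and 9.39 CPM (-2.03 ± 0.45, edgeR adjusted p = 0.0416 with the block and 0.626 without it). In all 3 genes both combined libraries lay below both knockdown libraries.

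With the control shRNA the sets parted. In set 28, 46 of 48 genes were lower with DS3201 (46.9% of all genes), 32 by over 2-fold (9.32%), and 0 were over 2-fold higher (15.2%), whereas in set 20, 30 were lower (48.5%) and 1, Ifit3, by over 2-fold (1.88%), while 3, Mx1, Iigp1 and Epsti1, were over 2-fold higher (15.5%). Lower in both sets were 30 genes (28.9%), and 2, Mx1 and Epsti1, were higher in both (33.2%). The medians were -0.15 in set 20 and -1.51 in set 28, and the fitted median was -0.45. Leaving out the set 28 DS3201 library, which stood apart, turned the fitted median to 0.19, or to -0.23 with the block. Leaving out the set 20 control turned it to 0.02, or to -1 with the block. Without the block such a fit leaves the sets unbalanced between the groups. edgeR called 0 genes without the block (0% of all genes lower and 0.757% higher), with 3 at an unadjusted p under 0.05 (6.25%, below 12.4% of all genes). DESeq2 called 0 (0.466% of all genes lower and 4.92% higher). With the block edgeR called Ifi47 (0.75% of all genes lower and 6.82% higher), with 10 at an unadjusted p under 0.05 (20.8%, below 24.2% of all genes). The log2 fold change of Ifi47 was -1.40 ± 0.27 (edgeR adjusted p = 0.0286 with the block and 0.220 without it). Without the set 20 DS3201 library the blocked fit called 17 of the list lower, and also 18% of all genes lower and 18.5% higher. It called 3 without the set 28 DS3201 library (1.71% of all genes) and 0 without either control. In 4 genes, Stat2, Ifi47, Trim25 and Samhd1, both DS3201 libraries were below both controls (15.3% of all genes).

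The response to DS3201 differed between the sets in 9 genes, all with a lower response in set 28 (edgeR, 1.20% of all genes lower and 0.264% higher, with 34 of the 48 at an unadjusted p under 0.05, 70.8% against 10.8% of all genes). With both shRNAs the response was lower in set 28 for 43 of 48 genes (30.9% of all genes), and the median difference was -1.18. Iigp1, a GTPase that coats vacuoles of parasites, was at 32.7, 38.6, 88.3 and 46.1 CPM in set 20 and 39.5, 62.3, 19.9 and 11.8 CPM in set 28. Its 2 libraries with DS3201 were above those without it in set 20 and below them in set 28, and the responses differed by -2.54 ± 0.26 on the log2 scale (edgeR adjusted p = 0.00763). Gbp3, a guanylate-binding GTPase, was at 43.1, 46.2, 50.7 and 26.5 CPM in set 20 and 35.4, 61.2, 5.39 and 4.60 CPM in set 28, a difference in response of -2.94 ± 0.36 (edgeR adjusted p = 0.0141). Without DS3201 the 2 sets were close in Gbp3, and with it they were 9.41-fold and 5.76-fold apart. Ube2l6 was at 32.3, 44.8, 48.6 and 45.5 CPM in set 20 and 38.1, 53.7, 10.5 and 14.1 CPM in set 28 (-2.19 ± 0.27, edgeR adjusted p = 0.0141). Rtp4, Oas3, Ifi44, Oasl2, Ifit1 and Isg15 were the other 6. Gbp genes and Iigp1 have close relatives that may share reads. Fits that left out a library with DS3201 called many more genes throughout the table. The count of the list was 30 without the set 28 DS3201 library (8.37% of all genes lower), 29 without the set 20 one (8.95%), and 40 and 38 without the combined library of set 20 and set 28 (26.2% and 24.3%). It was 4 without either Ring1a shRNA library (1.11% and 1.1% of all genes).

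**Figure D4:**
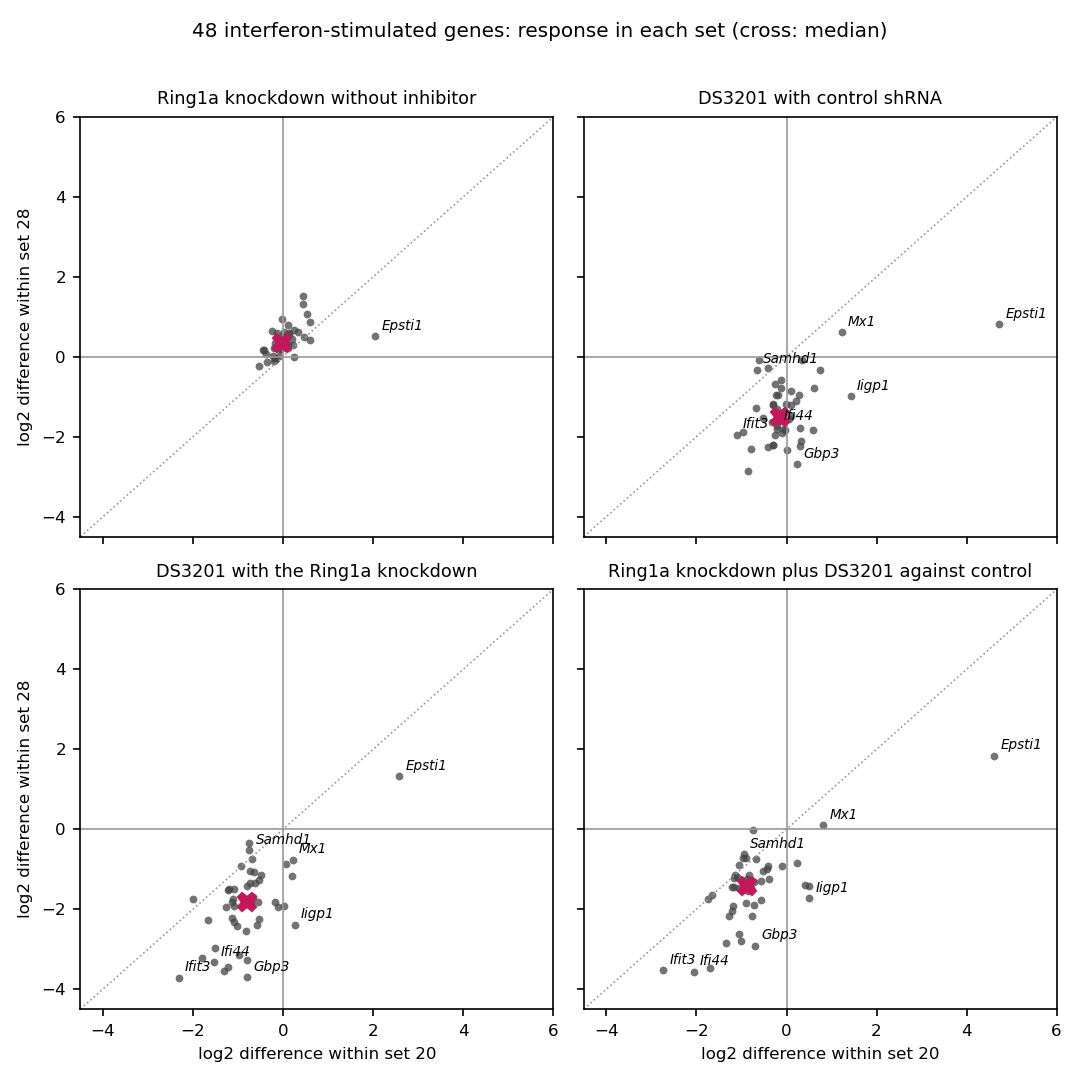
Log2 difference within set 20 (x axis) against set 28 (y axis) for the 48 genes in 4 comparisons, 1 point per gene, with the median as a cross and equal responses on the dotted line. With DS3201 and control shRNA the median is near 0 in set 20 (-0.15) and low in set 28 (-1.51), and in both comparisons of the combined group most genes lie below 0 on both axes.

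With the Ring1a knockdown alone no gene of the list passed. Its median log2 fold change was 0.14 (-0.03 in set 20 and 0.34 in set 28), 5 genes were lower in both sets (31.6% of all genes) and 22 higher (34.8%). In set 20, 26 genes were lower (46.3%), 0 by over 2-fold (0.535%), and 1 was over 2-fold higher (3.13%). In set 28, 5 were lower (49.4%), 0 by over 2-fold (1.21%), and 3 were over 2-fold higher (3.6%). edgeR called 0 of the 48 with and without the block (0% of all genes in either direction), with 0 at an unadjusted p under 0.05 (1.08% of all genes without the block and 3.92% with it), and DESeq2 called 0. The smallest p belonged to Epsti1 and Mx2, with log2 fold changes of 1.87 ± 1.47 and 0.76 ± 0.72 (edgeR adjusted p = 1 for both). Oas2 and Rsad2 were 2.89-fold and 2.49-fold higher in set 28 and 1.37-fold and 1.36-fold higher in set 20. The median turned to -0.17 without the set 20 Ring1a shRNA library and to -0.24 without the set 28 control, and in the blocked fit to -0.02 without the set 20 control and -0.33 without the set 28 Ring1a shRNA library.

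With DS3201 present, the knockdown went with lower levels in set 20, where all 48 genes were lower (51.0% of all genes), 6 by over 2-fold (1.31%), and the median was -0.76. In set 28, 29 of 48 were lower (48.2%) and the median was -0.19, so 29 genes were lower in both sets (26.3%). edgeR called 0 of the 48 with and without the block (0% of all genes in either direction), with 0 and 6 at an unadjusted p under 0.05 (1.85% and 7.65% of all genes), and DESeq2 called 0. Here too Ring1 itself did not pass in edgeR, at -2.22 ± 0.30 with the block (edgeR adjusted p = 0.594). Ifi44 was 3.63-fold lower in set 20 and 3.62-fold lower in set 28, a log2 fold change of -1.86 ± 0.94 (edgeR adjusted p = 1, and 0.594 with the block). Ifit3 was 3.10-fold and 3.07-fold lower in the same sets. Stat2 was 1.88-fold and 1.18-fold lower, -0.67 ± 0.40 (edgeR adjusted p = 1, and 0.594 with the block). Bst2, Oas1b and Oas1g instead were lower in set 20 and 2.13-fold, 2.11-fold and 2.07-fold higher in set 28, where the DS3201 library they are set against is the one that stood apart. Without the block, leaving out a library also leaves the sets unbalanced between the groups. The fitted median of -0.57 depended on which library was left out. It was -1.17 without the set 28 DS3201 library, -1.35 without the set 20 combined library and -0.10 without the set 28 combined library. Without the set 20 DS3201 library it turned to 0.93, or to 0.20 with the block, where edgeR called 2 of the list lower and 4 higher (13.2% and 14% of all genes), and Stat2 turned to 0.04 without the block.

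The interaction asks whether the knockdown acts differently with and without DS3201. All 48 genes had a lower value with DS3201 in set 20 (53.2% of all genes) and 38 did in set 28 (50.4%), with medians of -0.81 and -0.43. edgeR called 0 of the 48 with and without the block (0% of all genes in either direction), with 0 and 5 at an unadjusted p under 0.05 (0.132% and 0.917% of all genes), and DESeq2 called 0. The smallest p belonged to Mx2 and Stat2, at -1.64 ± 1.04 and -0.81 ± 0.56 on the log2 scale (edgeR adjusted p = 1 for both). A difference between the 2 knockdown responses was therefore not shown. Without the set 20 DS3201 library the fitted median, -0.80 with all libraries, turned to 0.59, and with the block it was about 0.

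Interferon genes, receptors, sensors and regulators outside the list were read next. Of 20 interferon genes, none passed the filter on low counts, and together they held 0 to 18 counts per library. Ifnb1, the type I interferon fibroblasts make, was at 0.190, 0.325, 0.623 and 0.188 CPM in set 20 and 0, 0.0673, 0.177 and 0.0639 CPM in set 28, near or under the level of 3 counts in most libraries. The receptors were read apart from these ligands. Ifnlr1, a receptor chain for type III interferon, held 0 counts in the set 20 and set 28 controls and was at 2.32 and 1.15 CPM with DS3201 and 4.33 and 3.39 CPM in the combined group. It rose in the combined group with and without the block (edgeR adjusted p = 0.00701 and 0.0491). Ifnar1 and Ifnar2, the type I receptor chains, did not pass in the comparisons of treatments, with Ifnar2 between 24.2 and 35.9 CPM in all 8 libraries. Between the sets, Ifnar1 was higher in set 28, while Tyk2 and Stat3 were lower (edgeR, 11.8% of all genes higher and 14.5% lower). Ifnar1 was at 59.8 CPM in the set 20 control and 82.5 CPM in the set 28 control.

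Of 12 nucleic acid sensors and adaptors, 3 fell in the combined group with the block (2.19% of all genes lower). None did without it (0.0347%). Ddx58, the RNA sensor RIG-I, was at 178, 155, 140 and 82.6 CPM in set 20 and 144, 154, 74.5 and 48 CPM in set 28 (-1.34 ± 0.24, edgeR adjusted p = 0.0159 with the block and 0.174 without it). Ifih1, the RNA sensor MDA5, was at 234 and 149 CPM in the controls and 137 and 42.2 CPM in the combined group (-1.25 ± 0.31, edgeR adjusted p = 0.045 with the block and 0.578 without it). Eif2ak2, the RNA-activated kinase PKR, had a log2 fold change of -0.88 ± 0.17 (edgeR adjusted p = 0.0214 with the block and 0.565 without it). The median of the 12 was -0.79 without the block (about 0 over all genes). Irf8, another interferon regulatory factor, rose in the combined group with the block (edgeR adjusted p = 0.0103, and 0.0746 without it) from at most 0.0671 CPM in the controls to 2.26 and 1.6 CPM. No gene of 6 negative regulators passed in the comparisons of treatments. Between the sets, Ptpn2 was higher and Ptpn6 lower in set 28 (edgeR, 11.8% of all genes higher and 14.5% lower).

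Markers of other cells were read to see what else moved with the list. Of 12 leukocyte and macrophage markers, the summed level was 17.0 to 21.9 CPM in set 20 and 8.21 to 15.7 CPM in set 28, with Tyrobp at 0 counts in all 8 libraries. That sum was lower in set 28 in each group, as the list was. It was not lower in the DS3201 library of set 28 (15.7 CPM) than in the control (9.53 CPM). Lyz2, a lysozyme of myeloid cells, was at 0.0475 to 0.269 CPM in the 4 libraries without DS3201. In the 4 with it, Lyz2 was at 5.27 to 7.91 CPM. Ptprc, the common leukocyte antigen, was at 0.325 to 2.48 CPM without DS3201 and 1.34 to 5.03 CPM with it. In set 28 its combined library (1.34 CPM) was below the control (2.48 CPM). Itgam and Cd68 went the other way and were lower with DS3201 in each set. In the order control, Ring1a shRNA, DS3201 and combined, Itgam was at 8.46, 5.77, 1.59 and 2.07 CPM in set 20. In set 28 it was at 2.01, 1.41, 0.442 and 0.128 CPM. Cd68 was at 8.46, 10.2, 4.36 and 4.33 CPM in set 20 and 2.68, 2.49, 2.21 and 1.53 CPM in set 28. The 7 epithelial markers summed to 61.3 to 141 CPM in set 20 and 17.7 to 29.8 CPM in set 28, nearly all of it Krt14. Krt14, a basal keratin, was at 64.1, 57.6, 135 and 138 CPM in set 20 and 17, 19.7, 21.6 and 28.4 CPM in set 28, higher with DS3201 in each set. The part of these markers in the differences between the sets or with DS3201 was not tested. The 7 endothelial markers summed to 20.6 to 38.3 CPM. The 11 fibroblast markers summed to 18124 to 20785 CPM in the 4 libraries without DS3201 and 12198 to 14697 CPM in the 4 with it. This sum was lower with DS3201 as the list was, and its part in the result was not tested either. Col1a1, a collagen chain, was at 6153, 6954, 4443 and 3744 CPM in set 20 and 5547, 6013, 3052 and 3904 CPM in set 28. Vim was at 2132, 1888, 1762 and 1932 CPM in set 20 and 2879, 2271, 2861 and 2774 CPM in set 28. With the Ring1a shRNA, Vim was thus higher with DS3201 in each set. Fn1 was at 2599, 2174, 2468 and 2250 CPM in set 20 and 5658, 3612, 4231 and 3253 CPM in set 28. It was lower with DS3201 except with the Ring1a shRNA in set 20. Pdgfrb, a growth factor receptor, was at 153 to 220 CPM without DS3201 and 49.5 to 71.9 CPM with it. Dcn and Pdgfra went the other way, from 0 to 0.404 and 0.19 to 7.27 CPM without DS3201 to 6.71 to 9.67 and 8.95 to 28.4 CPM with it. Lum was at 0 counts in the 4 libraries without DS3201, and Thy1 was under 0.5 CPM in all 8.

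Of the 48 genes, 24 lie in 9 groups of neighbours less than 500 kb apart (GENCODE M21 positions, GRCm38). The OAS group on chromosome 5 (120730333 to 120907521) holds 5 genes, and the IFIT group on chromosome 19 (34550694 to 34650009) and the Gbp group on chromosome 3 (142530342 to 142638008) hold 3 each. Within the IFIT group, the log2 difference between the combined group and control ran from -2.74 to -0.73 in set 20 and from -3.53 to -0.73 in set 28. The neighbours Gbp7, Gbp3 and Gbp2 had values of -1.05, -0.70 and 0.41 in set 20, where Gbp2 was higher, and -2.63, -2.91 and -1.39 in set 28, where all 3 were lower.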

How the data were processed

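RNA of 4 groups was counted in 8 libraries. The deposited file holds raw counts per gene symbol and repeat subfamily (25215 entries), which the authors had not normalized. The submitters' processing notes name Trim Galore, TopHat2 and the build mm10. For the counting tool, annotation, strand and reads with several alignments, the sources used here give nothing, so close copies and overlapping genes are uncertain. A further 8 columns match none of the labelled samples and stayed out.

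The test was that of edgeR 4.0.16 (R 4.3.3), on the counts as deposited: filterByExpr by group (15287 entries kept), TMM, a robust quasi-likelihood F test (two-sided) with 1 term per group over all 8 libraries, and Benjamini-Hochberg adjustment over all entries at 0.05. The set prefix was taken to pair libraries across groups, because the labels name batches and the set differences of every pair of groups correlated. The correlation r ran from 0.559 to 0.897, across the entries kept. The fit with the set as replicate block is therefore given beside the fit without it. Differences within a set use log2 CPM with a prior count of 2. The difference between sets came from a fit of group and set, and the response by set from adding their interaction, with 2 residual degrees of freedom. DESeq2 1.42.0, its size factors, no filter on low counts, genes only, only the groups compared and leaving out each library were alternatives. Leaving out a library with the block was chosen after seeing the data. The edgeR fits with and without the block were tested on simulated data for DS3201 with control shRNA and for the set difference. The simulated DS3201 effect was the same in both sets, unlike in these data. Knockdown comparisons and the response by set were not covered.

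The members and lists were chosen with earlier results of these data known. Fold changes with SE are given for members past the threshold without the block, then with it (at most 8 per comparison, smallest p first), otherwise for the 2 with the smallest p, and levels for up to 3 members per role. Other members named were chosen after their values were seen. The floor of 3 counts covers counting error only. Coordinates are GENCODE M21 for genes and RefSeq GRCm38.p6 for promoters, both of the mm10 build. Some pathway genes are not reported here.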

Additional observations from a re-analysis of the deposited data

Results flagged for a closer look

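The response to DS3201 differed between the sets by the edgeR test of set by inhibitor in 9 of the 48 genes, each lower in set 28 than in set 20. The log2 difference in response was -2.54 for Iigp1, -2.94 for Gbp3, -2.19 for Ube2l6, -1.96 for Rtp4, -2.19 for Oas3, -1.68 for Ifi44, -2.02 for Oasl2, -1.52 for Ifit1 and -2.19 for Isg15. Rtp4, a chaperone of membrane receptors, was at 106, 102, 101 and 51.9 CPM in set 20 (control, Ring1a shRNA, DS3201 and combined) and 53.6, 68.3, 15.4 and 7.67 CPM in set 28. With 2 residual degrees of freedom and 1 library per set and group, the set cannot be told apart from whatever else differed between those libraries. The labels do not tie the sets to the 2 batches.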

How the results depend on the processing

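Fitted without the block, the edgeR count of genes lower was 0 in each of the 6 comparisons of treatments; with the replicate block it was 1 for DS3201 with control shRNA, 12 for the combined group against control and 12 for DS3201 with the Ring1a knockdown, and the block changed no other count. DESeq2 gave 3 lower in each of those last 2 comparisons (0.875% and 0.264% of all genes lower). For the response by set the count lower was 9 (1.2% of all genes). It was 19 in DESeq2 (1.76%) and 14 without a filter on low counts (1.37%). Leaving out each library in turn, with or without the block, gave the lowest and highest medians and counts that follow. The share of all genes called varied as well. It reached 0.421% lower and 4.57% higher for the combined group against control, and 0.254% and 4.41% for DS3201 with the Ring1a knockdown. In the blocked fit without the set 20 DS3201 library it was larger. There it was 13.2% lower and 14% higher for the knockdown with DS3201, and 5.69% and 7.13% for the interaction. Counts from that fit are therefore not particular to the list. For the combined group against control the median ran from -1.83 to -0.58, with 0 to 2 genes lower and 0 to 1 higher. For DS3201 with the Ring1a knockdown it ran from -2.04 to -0.68, with 0 to 16 lower. For DS3201 with control shRNA it ran from -1.96 to 0.19, with 0 to 17 lower and 0 to 1 higher (0 to 18% of all genes lower). For the knockdown with DS3201 it ran from -1.35 to 0.93, with 0 to 2 lower and 0 to 4 higher, and for the knockdown without inhibitor from -0.33 to 0.67. For the interaction it ran from -1.70 to 0.59, with 0 to 1 lower and 0 to 2 higher. For the difference between the sets it ran from -1.47 to -0.82, with 12 to 36 lower (7.5% to 17.6% of all genes), and for the response by set from -1.66 to -0.88, with 4 to 40 lower and 0 to 2 higher (1.1% to 26.2% of all genes lower). Stat2 in the knockdown with DS3201 ran from -1.11 to 0.04 on leaving out each library. It was 0.04 without the block and without the set 20 DS3201 library, where the DS3201 group holds set 28 alone. Within sets 20 and 28 its log2 difference was -0.9 and -0.24, and the cause was not tested. Of 439 values of named genes under alternatives, 397 kept direction and side of the threshold, 20 lost and 21 gained the threshold, and 1 reversed. With 2 libraries per group, the direction of a response within a set rests on 1 library per group, and genes near 3 counts, such as Epsti1 and Ifnb1, have no usable fold change at this depth.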
